A study of Drosophila melanogaster with 62 samples.

Results

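Ribosomes in the cytosol are built from ribosomal RNA and a set of proteins, of which the RpS proteins belong to the small (40S) subunit and the RpL proteins to the large (60S) subunit. In *Drosophila* most of these proteins are encoded by single genes, some have a second copy whose mRNA is confined to certain tissues, and the early embryo lives on ribosomes and mRNAs that the mother loaded into the egg. Ribosomal protein mRNAs carry a terminal oligopyrimidine tract and are regulated together at translation, and BRAT is an RNA-binding protein that represses maternal mRNAs in the embryo. The genes described here are the cytosolic ribosomal protein genes, taken as every gene of the count table whose FlyBase symbol begins with RpL or RpS followed by a digit or P, so that the mitochondrial ribosomal proteins are left out. The rule gave 92 genes of 17510 in the table and used no measured value. They lie on all major chromosome arms, with 21 on 2R, 23 on 3R, 19 on 2L, 14 on 3L, 14 on X and 1 on chromosome 4, in the coordinates of dm6.

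RNA was sequenced from single oocytes and single staged embryos in 62 libraries. *brat*-mutant samples came from mothers that carried a *brat* deficiency over the *fs1* allele, *brat* het samples from mothers with either the deficiency or *fs1* over a balancer chromosome, and *HisRFP* controls from a *w* stock. By the study's methods embryos of all 3 genotypes carried a His2AV-RFP transgene on the third chromosome, which marks nuclei and was used to stage them. The *brat* hets are a mixed group, because the allele is not given per library, and the *HisRFP* controls come from another stock than the *brat* alleles. Samples were oocytes and embryos of nuclear cycles (NC) 10, 12, 13 and 14, the last sampled early and again later, with 4 libraries each, lettered A to D, and 3 (A, C and D) at NC13. The *brat* hets were not sampled at NC13 or at early NC14. Values of single libraries are listed below in letter order, except for *HisRFP* at NC13 (C, D, A) and at later NC14 (B, C, D, A). Nothing in the labels says that libraries of a group share a mother or a day, so p-values measure the spread between these single oocytes or embryos.

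Libraries held 4000899 to 41029921 reads counted on genes, with a median of 13015435.5, and levels are given as CPM, reads scaled to a fixed library size of 1000000 counted reads and adjusted by TMM factors over all libraries. The kit selected polyadenylated RNA, so a change in mRNA amount and a change in poly(A) tail length cannot be told apart, nor can fewer cells and less RNA per cell. The *brat* mRNA itself averaged 990 ± 28.6 CPM in *brat*-mutant embryos and 101 ± 5.65 CPM in *HisRFP* embryos at early NC14, and 510 ± 26.8 CPM in *brat*-mutant oocytes and 757 ± 195 CPM in *HisRFP* oocytes (SD, n = 4 each), so its level does not mark the mutants by a loss. The germ line markers *bcd*, *osk* and *gnu* summed to 862 to 1781 CPM in *brat*-mutant, 1575 to 1875 CPM in *brat* het and 1140 to 2021 CPM in *HisRFP* oocytes. The 10 eggshell and follicle cell markers summed to 55.0 to 266 CPM in *brat*-mutant oocytes, 17592 to 59896 CPM in *brat* het oocytes and 2.80 to 30990 CPM in *HisRFP* oocytes. At early NC14 the *brat*-mutant replicate C stood apart from the other 3 embryos for several of the genes below. Values are given with and without it for *RpLP0* and *RpS2*, and with it for the other genes.

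Of the 92 genes, 87 had at least 50 reads over all libraries, and 84 to 86 of them passed the same filter within each comparison. The genes that were nearly silent in every library are second copies. *RpL7-like*, *RpL37-2*, *RpS10a*, *RpS28a* and *RpS28-like* had 7, 20, 29, 16 and 25 reads in all, *RpL22-like* and *RpL10Aa* had 61 and 79, and *RpS19b* had 487 reads and reached 1.97 CPM in its highest library. The partner of each was read in all 62 libraries. The other genes named as a copy or for a likeness were read in every library at different levels. Whether the products of the genes named for a likeness act as ribosomal proteins was not tested. *RpLP0-like*, which is named for its likeness to *RpLP0*, had 28.5 to 130 CPM over the single libraries. *RpS15Ab* had 18.0 to 49.6 CPM, and *RpL24-like*, which is named for its likeness to *RpL24*, had 109 to 334 CPM. *RpS14a* and *RpS14b*, which lie next to each other on X (7933742 to 7934677 and 7934898 to 7935792) and encode the same small-subunit protein, were both well read, as were *RpL34a* and *RpL34b*. Multi-mapping reads were discarded by the authors, so reads from stretches shared by 2 copies are lost from both, and 32 of the 92 genes overlap an exon of another gene, which unstranded counting cannot separate.

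Levels of different genes can be set side by side only per length. In *HisRFP* oocytes the median over the 84 readable genes was 1148 CPM per kilobase of exon, and the middle part of the distribution, from the tenth to the ninetieth percentile, ran from 490 to 2038 CPM per kilobase. Among the highest genes were *RpL41* with 4267, *RpL13A* with 3476, *RpS2* with 3061 and *RpL23A* with 2901 CPM per kilobase. At the lower end, *RpS28a*, *RpS10a* and *RpL7-like* had 0 reads in *HisRFP* oocytes, and *RpL22-like* and *RpL37-2* had 0.0188 and 0.0425 CPM per kilobase. The genes whose products form the stalk that recruits translation factors to the large subunit were at middle levels, with *RpLP2* at 1627, *RpLP1* at 1037 and *RpLP0* at 1024 CPM per kilobase.

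Summed over the 92 genes, ribosomal protein mRNAs had a higher mean level in NC14 than at NC10 or NC12 in every genotype. In *brat* mutants the sum averaged 96733 ± 18684 CPM in oocytes, 67177 ± 5139 at NC10, 75267 ± 6902 at NC12, 93845 ± 19906 at NC13 (n = 3), 119121 ± 17659 at early NC14 and 137910 ± 32350 at later NC14 (SD, n = 4 otherwise). In *brat* hets the sum was 68554 ± 1129 CPM in oocytes, 72876 ± 5134 at NC10, 81868 ± 13645 at NC12 and 129392 ± 8721 at later NC14. *HisRFP* libraries had 110946 ± 28234 CPM in oocytes, 81448 ± 16696 at NC10, 81967 ± 13307 at NC12, 111265 ± 19907 at NC13, 135009 ± 16487 at early NC14 and 139491 ± 10217 at later NC14. As a share of raw counted reads, the means lay between 6.88% in *brat* het oocytes and 13.4% at later NC14 in *HisRFP* embryos. The *brat*-mutant mean was below the *HisRFP* mean at every stage, and the libraries of these 2 genotypes overlapped at every stage. The 4 *brat* het oocytes, from 67139 to 69788 CPM, lay below every *brat*-mutant and every *HisRFP* oocyte. A sum over the genes carries no test here.

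**Figure D1:**
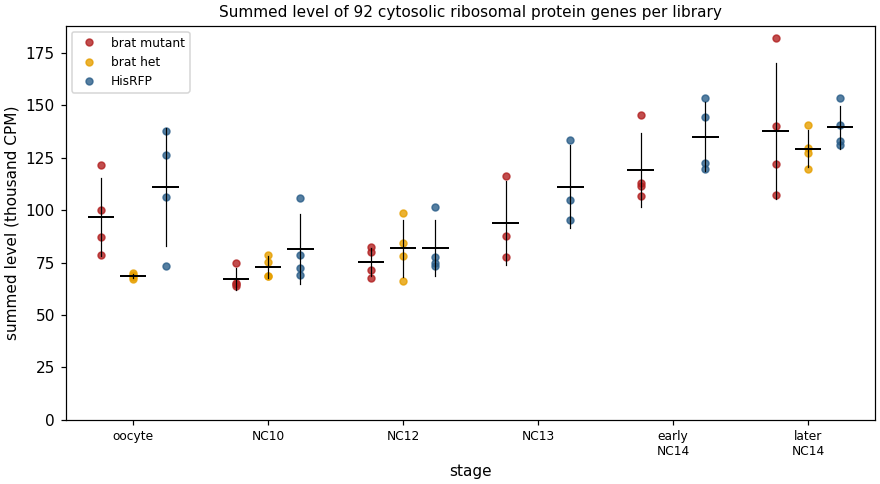
Summed CPM (axis in units of 1000 CPM) of the 92 cytosolic ribosomal protein genes per library against stage, for *brat* mutants, *brat* hets and *HisRFP*; points are libraries, horizontal bars the group mean and vertical bars 1 SD. All groups are lowest at NC10 and NC12 except *brat* het oocytes, which average 68554 CPM.

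The step from NC12 to NC13 is where most ribosomal protein genes rose by adjusted p in *HisRFP* embryos. It is also a step in sequencing depth, with no overlap. *HisRFP* libraries held 8036126 to 16537207 counted reads at NC12 and 20509607 to 23781175 at NC13. They held 21639219 to 41029921 at early NC14 and 6514331 to 13635751 at later NC14. Stage and depth cannot be told apart at NC13 over NC12 or at later over early NC14. The part of depth was not tested. Each comparison was tested gene by gene with edgeR's quasi-likelihood F-test over all genes, with Benjamini-Hochberg adjustment, and a gene is called where the adjusted p is under 0.05 and the absolute log2 fold change is over 1. Of 85 genes tested at NC13 over NC12, 82 had a positive log2 fold change, none was called, when 2.52% of all 7018 genes tested were called higher and 22.4% in either direction, and 52 rose at an adjusted p under 0.05 alone, when 21.7% of all genes rose by that rule. DESeq2 also called none. The median was 0.51 over the ribosomal protein genes and 0.03 over all genes. *RpL32*, often used as a reference in RT-qPCR, had 1206, 878 and 970 CPM at NC13, against 597, 605, 743 and 587 CPM at NC12. All 3 NC13 embryos were above all 4 NC12 embryos, with a log2 fold change of 0.68 and an adjusted p of 0.0222 (edgeR). The stalk gene *RpLP1* had 1373, 997 and 1064 CPM at NC13, against 522, 699, 898 and 722 CPM at NC12, a log2 fold change of 0.68 (adjusted p = 0.0311, edgeR), and *RpL34b* had 0.66 (adjusted p = 0.0268, edgeR). Among the exceptions were *RpL13A* and *RpS10b*, with log2 fold changes of -0.23 and -0.003, neither past the threshold. The count of 52 depended on single embryos. It was 0 without the NC12 replicate A, B or D and without the NC13 replicate A, and 31 without the NC13 replicate C. The median log2 fold change in these 5 fits lay between 0.37 and 0.55.

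At the other steps up to early NC14 none of these genes passed by adjusted p in the main fits, though at each of these steps most had the same sign. In *HisRFP* NC10 embryos against oocytes, 71 of 84 genes had a negative log2 fold change, the median was -0.23, and 0 were called or passed at an adjusted p under 0.05 alone (edgeR), with 6 at an unadjusted p under 0.05. Of all 7415 genes tested, 12.7% were called and 27.5% passed by adjusted p alone. DESeq2 called 3 there, and edgeR called 7 without the oocyte replicate B and 1 without the oocyte replicate C. The eggshell and follicle cell markers of these oocytes ran from 2.80 to 30990 CPM, and their part in this step was not tested. At NC12 over NC10, 62 of 84 genes had a positive log2 fold change and 22 a negative one, between -0.26 and 0.42. There, 0 were called by edgeR or by DESeq2 and 0 had an unadjusted p under 0.05, when 14.9% of all genes were called. At early NC14 over NC13, 84 of 85 were positive with a median of 0.29, 21 had an unadjusted p under 0.05 and none passed after adjustment (edgeR), which was also the result for all 7676 genes, of which 0% were called. At later over early NC14 the median was -0.01 and the genes split. There, 4 of 85 were called higher, when 23% of all 8011 genes were called higher and 34.3% in either direction. At an adjusted p under 0.05 alone 13 rose and 4 fell, when 25.6% of all genes rose and 21.7% fell by that rule. Their total of 17 was 28 without the early NC14 replicate C and 10 without the later NC14 replicate C.

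The genes called higher in *HisRFP* embryos at later NC14 included *RpS14b*, *RpS10b* and *RpL13A*. *RpS14b* had 574, 654, 545 and 432 CPM at later NC14, against 307, 223, 325 and 215 CPM at early NC14 (log2 fold change 1.19, adjusted p = 0.00125, edgeR). *RpS10b*, a small-subunit gene at X from 19598031 to 19599806 on the plus strand, had 3748, 4189, 3948 and 2586 CPM at later NC14, against 1995, 1514, 2034 and 1628 CPM at early NC14 (log2 fold change 1.16, adjusted p = 0.00099, edgeR). The large-subunit gene *RpL13A*, at 3R from 5624474 to 5625947 on the plus strand, had 2756, 3320, 2794 and 2330 CPM at later NC14, against 1443, 1153, 1766 and 1264 CPM at early NC14 (log2 fold change 1.14, adjusted p = 0.000833, edgeR). In all 3 genes every later embryo was above every early embryo. *RpS2* had 0.9964 on the log2 scale, just inside the threshold of 1, at an adjusted p of 0.00221 (edgeR). The neighbouring copy *RpS14a* had 550, 661, 522 and 519 CPM at later NC14, against 551, 458, 637 and 493 CPM at early NC14, so the 2 groups overlapped. The genes that fell were *RpL36A*, *RpL39*, *RpL29* and *RpL10*, by 0.41, 0.35, 0.32 and 0.31 on the log2 scale.

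*RpL13A* also differed between oocytes of a group. It had 2725, 3777, 1433 and 2205 CPM in *brat*-mutant oocytes, 1435, 1572, 1396 and 1266 CPM in *brat* het oocytes and 2331, 831, 4756 and 4637 CPM in *HisRFP* oocytes, so that the *HisRFP* oocytes enclosed those of both other genotypes. The eggshell and follicle cell markers of the *HisRFP* oocytes ran from 2.80 to 30990 CPM, and their part in these values was not tested. Between the highest and the lowest *HisRFP* stage mean, *RpLP0* spanned 1.45, *RpL13A* 1.39 and *RpS2* 1.37 on the log2 scale, with a median of 0.90 over the 84 readable genes and 0.66 for *RpL23*. The library with the highest *RpL13A* of its group also had the highest *RpS10b* in 14 of the 16 groups, the highest *RpS14b* in 13 and the highest *RpS2* in 12, a count over genes chosen after their values were seen.

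**Figure D2:**
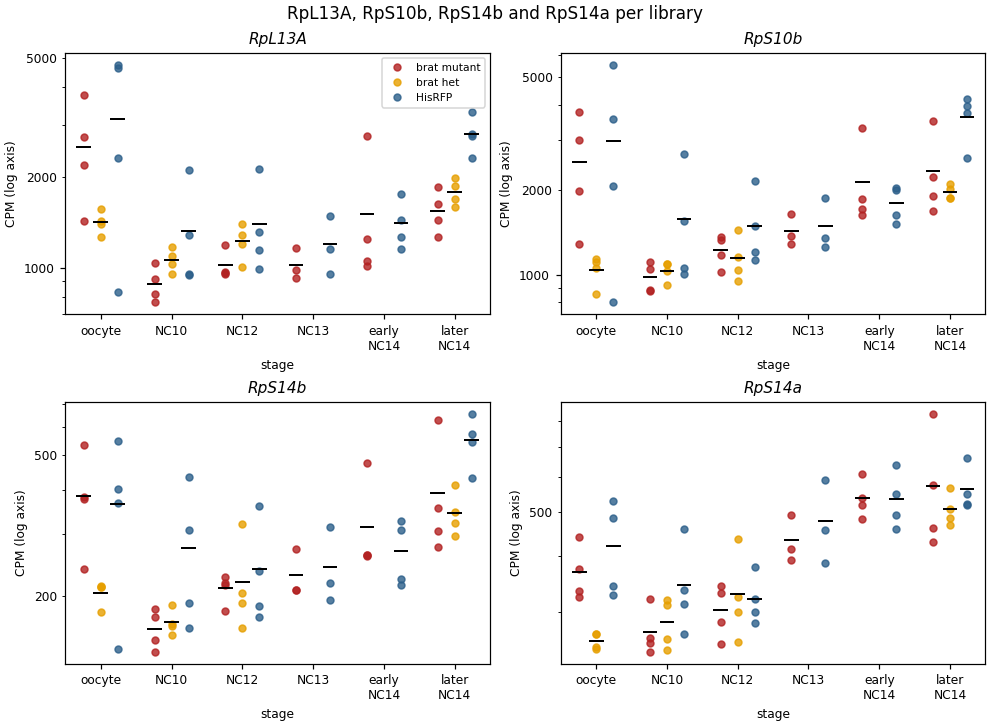
CPM on a log axis per library against stage for *RpL13A*, *RpS10b*, *RpS14b* and *RpS14a* in *brat* mutants, *brat* hets and *HisRFP*; points are libraries and bars group means. At later NC14 the *HisRFP* embryos reach 2330 to 3320 CPM of *RpL13A*, above the *brat* hets, and *HisRFP* oocytes range from 831 to 4756 CPM.

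Between *brat* mutants and *HisRFP*, few ribosomal protein genes were called at any stage. No gene of 84 was called in oocytes or at NC12 and none of 85 at NC10, 1 of 85 was called at NC13 and 1 of 85 at early NC14, and 2 of 85 at later NC14, all lower in *brat* mutants. Of all genes tested, 1.15% were called in oocytes, 3.27% at NC10, 5.64% at NC12, 3.91% at NC13, 13.8% at early NC14 and 13.7% at later NC14 in either direction, and 1.04%, 4.35% and 5.91% were called lower at NC13, early NC14 and later NC14. The genes at an unadjusted p under 0.05 numbered 3 in oocytes, 6 at NC10 and 4 at NC12, and DESeq2 also called none at these 3 stages. The median log2 fold change over the genes was -0.16 in oocytes, -0.22 at NC10, -0.03 at NC12, -0.22 at NC13, -0.22 at early NC14 and 0.09 at later NC14, beside -0.03, 0.00, -0.01, -0.02, -0.06 and -0.03 over all genes.

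**Figure D3:**
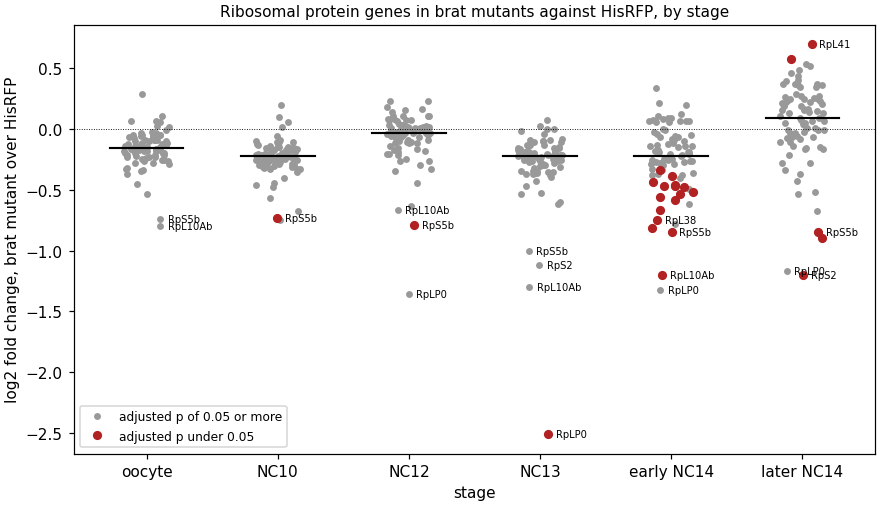
Log2 fold change of *brat* mutants over *HisRFP* for each ribosomal protein gene tested, by stage; points are genes, red at an adjusted p under 0.05 (edgeR), and bars are medians. The lowest point is *RpLP0* at NC13, at -2.51, and 16 genes are red at early NC14.

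*RpLP0*, the protein that anchors the stalk to the large subunit, had the largest difference. The gene lies at 3L from 22075867 to 22077487 on the plus strand. At NC13 it had 469, 115 and 239 CPM in *brat*-mutant embryos, against 2030, 1245 and 1226 CPM in *HisRFP* embryos. All 3 *brat*-mutant embryos were lower than all 3 *HisRFP* embryos, with a log2 fold change of -2.51 ± 0.49 (SE, adjusted p = 0.0446, edgeR). The call was lost without any one of 5 of the 6 embryos, with adjusted p of 0.0837 to 0.19, and held only when *brat*-mutant replicate A was left out (-3.07, adjusted p = 0.0299, edgeR). At NC12 the 4 *brat*-mutant embryos had 483, 452, 520 and 138 CPM, against 182, 1063, 1643 and 1189 CPM in *HisRFP* embryos. The *HisRFP* replicate A, with 182 CPM, lay below 3 of the *brat*-mutant embryos, and the log2 fold change of -1.35 did not pass (adjusted p = 0.213, edgeR). Without that replicate it was -1.71 with an adjusted p of 0.0342 (edgeR). Leaving out any other single embryo gave an adjusted p of 0.247 to 0.395 (edgeR). A fit with the replicate letter as a block gave 0.498 (edgeR). The *brat* het embryos at NC12 had 1429, 1652, 1221 and 1687 CPM, and *brat* mutants were lower than these by 1.94 on the log2 scale (SE 0.34, adjusted p = 0.0129, edgeR), with no overlap.

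At early NC14 *RpLP0* had 366, 188, 1824 and 113 CPM in *brat*-mutant embryos, against 1359, 1602, 1920 and 1286 CPM in *HisRFP* embryos. Replicate C, at 1824 CPM, sat among the *HisRFP* embryos and the other 3 were far below them. The log2 fold change was -1.32 ± 0.74 (SE, adjusted p = 0.236, edgeR) with replicate C and -2.83 (adjusted p = 0.00202, edgeR) without it. At later NC14 the *brat*-mutant embryos had 602, 759, 2198 and 460 CPM, against 1835, 2142, 2094 and 2301 CPM in *brat* het and 2248, 2187, 2417 and 1992 CPM in *HisRFP* embryos. Again 1 embryo, replicate C, was at the level of the other genotypes, and the log2 fold change against *HisRFP* was -1.17 (adjusted p = 0.0756, edgeR), or -1.91 (adjusted p = 0.000245, edgeR) without it. The same replicate C was the lowest of its group in the zygotic markers described further on, with 1179 CPM, whose part in this value was not tested. Before NC12 the values of *RpLP0* were mixed. In oocytes it had 1343, 975, 298 and 1026 CPM in *brat* mutants and 2033, 1117, 647 and 1644 CPM in *HisRFP*, and at NC10 329, 1081, 1096 and 1160 CPM in *brat* mutants and 1101, 834, 480 and 812 CPM in *HisRFP*, with overlap at both stages. The stalk partners of *RpLP0* differed less. *RpLP1* and *RpLP2* had log2 fold changes of -0.59 (adjusted p = 0.0462, edgeR) and -0.67 (adjusted p = 0.00524, edgeR) at early NC14 and did not pass at any other stage against *HisRFP*. *RpLP0-like* was not called at any stage.

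*RpL10Ab*, the protein of the L1 stalk near the site where tRNA leaves the ribosome, was the gene called at early NC14. The gene lies at 3L from 11822851 to 11824211 on the plus strand and shares 5 exon bases with *CG32095*. It had 674, 539, 1036 and 545 CPM in *brat*-mutant embryos, against 1655, 1429, 1852 and 1350 CPM in *HisRFP* embryos. All 4 *brat*-mutant embryos, replicate C included, were lower than all 4 *HisRFP* embryos, with a log2 fold change of -1.20 ± 0.23 (SE, adjusted p = 0.00541, edgeR), and the call held without any one library, between -1.46 and -1.04. At NC13 it had 722, 333 and 455 CPM in *brat*-mutant embryos, against 1440, 1076 and 1095 CPM in *HisRFP* embryos, and missed the threshold (log2 fold change -1.30, adjusted p = 0.0518, edgeR). At NC12 *brat* mutants had 481, 594, 476 and 384 CPM, against 801, 898, 604 and 878 CPM in *brat* hets, a log2 fold change of -0.73 (adjusted p = 0.0183, edgeR). At later NC14 the difference from *HisRFP* was -0.34 (adjusted p = 0.189, edgeR). The difference at later NC14 was smaller than at early NC14 by 0.96 on the log2 scale (interaction, adjusted p = 0.0437, edgeR). *RpL10Aa*, its near-silent copy, had 79 reads in the whole study.

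*RpS2*, a small-subunit protein at the entrance of the mRNA channel, was called at later NC14. The gene lies at 2L from 9896265 to 9897552 on the minus strand. It had 1818, 2400, 3269 and 994 CPM in *brat*-mutant embryos, against 4715, 5652, 4870 and 3747 CPM in *HisRFP* embryos. The groups did not overlap, and the log2 fold change was -1.20 ± 0.31 (SE, adjusted p = 0.0206, edgeR). Leaving out single libraries gave -1.499 to -0.93, and the call was lost without the *brat*-mutant replicate A or D or the *HisRFP* replicate C. At early NC14 the *brat*-mutant embryos had 1585, 392, 4453 and 528 CPM, against 2663, 2354, 3349 and 2153 CPM in *HisRFP* embryos. Replicate C was above every *HisRFP* embryo and the other 3 below, with a log2 fold change of -0.62 (adjusted p = 0.543, edgeR) over all and -1.69 (adjusted p = 0.0419, edgeR) without it. In 12 of the 16 groups the library lowest in *RpLP0* was also the lowest in *RpS2*, and in 10 of 16 it was the lowest in *RpL10Ab*, a count made after the values had been seen.

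*RpS5b* was lower in *brat* mutants than in *HisRFP* at 4 of the 6 stages by adjusted p, without passing the fold threshold. It was the 1 gene of its comparison past the adjusted p at NC10 and at NC12, when 2.05% and 5.04% of all genes were lower by that rule. Its protein is the second form of the small-subunit protein S5, and in *Drosophila* ovaries it is known as the form of the female germ line, while *RpS5a* is used broadly. *RpS5b* lies at 3R from 14900432 to 14901563 on the minus strand and *RpS5a* at X from 17143588 to 17148264 on the minus strand. At NC10 *RpS5b* had 620, 647, 633 and 719 CPM in *brat*-mutant embryos, 725, 734, 757 and 787 CPM in *brat* hets and 1496, 917, 1048 and 946 CPM in *HisRFP* embryos. The *brat*-mutant embryos were lower than every other embryo of that stage, with a log2 fold change over *HisRFP* of -0.73 (SE 0.18, adjusted p = 0.0453, edgeR). It was -0.79 at NC12 (adjusted p = 0.0266, edgeR), -0.84 at early NC14 (adjusted p = 0.0151, edgeR) and -0.84 at later NC14 (adjusted p = 0.00369, edgeR). Leaving out 1 library at a time ended the pass at NC10 in 5 of 8 fits (without *brat*-mutant B, C or D or *HisRFP* B or C, adjusted p 0.0653 to 0.148, edgeR), at NC12 in 4 of 8 (without *brat*-mutant A, C or D or *HisRFP* D, 0.0606 to 0.079), at early NC14 in 1 of 8 (without *brat*-mutant B, 0.0502) and at later NC14 in 0 of 8. With library totals the pass also ended at NC10 (adjusted p = 0.0653, edgeR). A fit with the replicate letter as a block ended it at NC10 (adjusted p = 0.091, edgeR) and at NC12 (adjusted p = 0.0998, edgeR). In oocytes it was -0.74 (adjusted p = 0.182, edgeR) and at NC13 -0.999 (adjusted p = 0.0619, edgeR). *brat* hets were also lower than *HisRFP*, with 823, 858, 913 and 743 CPM, against 2173, 1056, 1963 and 1580 CPM in *HisRFP* oocytes (log2 fold change -1.12 ± 0.21, SE, adjusted p = 0.0312, edgeR). That call held without *HisRFP* replicate B and was lost without any one of the other 7 oocytes. At later NC14 the value of *brat* hets over *HisRFP* was -0.60 (adjusted p = 0.00985, edgeR). Between *brat* mutants and *brat* hets *RpS5b* did not pass at any of the 4 shared stages. The comparisons of *brat* mutants and of *brat* hets with *HisRFP* share the *HisRFP* libraries. Its partner *RpS5a* had log2 fold changes between -0.47 and 0.06 in *brat* mutants over *HisRFP*, none past the threshold.

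**Figure D4:**
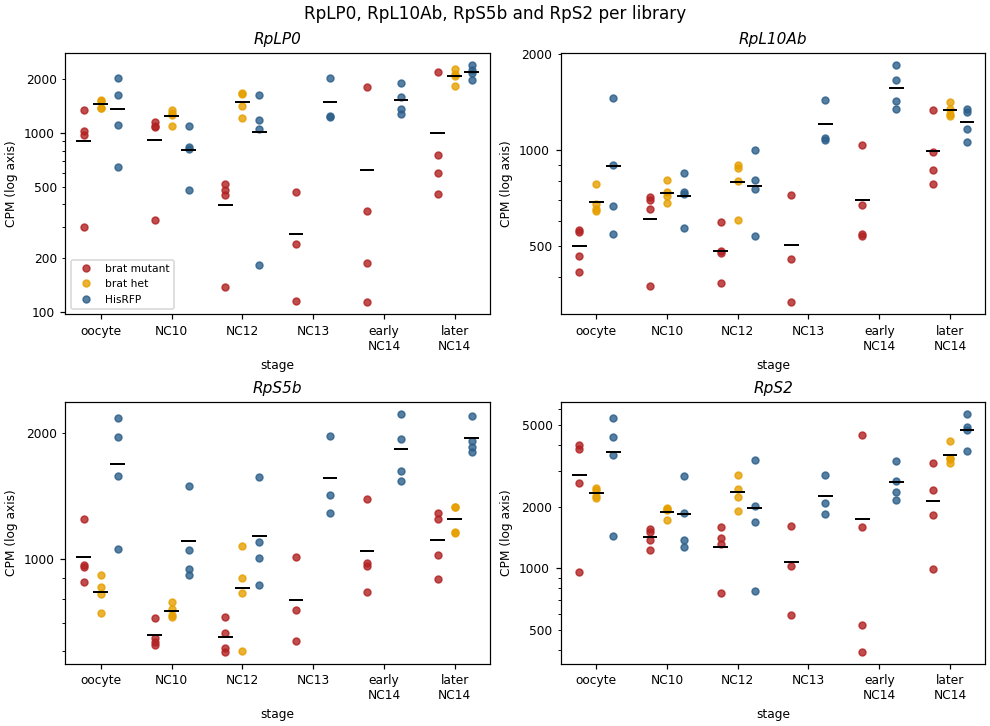
CPM on a log axis per library against stage for *RpLP0*, *RpL10Ab*, *RpS5b* and *RpS2* in *brat* mutants, *brat* hets and *HisRFP*; points are libraries and bars group means. For *RpLP0* at early NC14, 3 *brat*-mutant embryos lie at 113 to 366 CPM and replicate C lies at 1824 CPM.

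At early NC14 the difference was broader than these 4 genes and smaller in size. By adjusted p alone 16 of 85 genes were lower in *brat* mutants and 0 higher, when 8.9% of all 7880 genes tested were lower and 12.7% higher by that rule (edgeR). The count was 8 without the *brat*-mutant replicate A and 10 without the *brat*-mutant replicate B or D or the *HisRFP* replicate A. They comprised 11 of 50 large-subunit and 5 of 35 small-subunit genes. Besides those above they were *RpL36A*, *RpL38*, *RpL10*, *RpL34a*, *RpL39*, *RpL21*, *RpL15* and *RpL29* of the large subunit and *RpS27A* (made as a fusion to ubiquitin), *RpS3A*, *RpS29* and *RpS15Aa* of the small subunit, with log2 fold changes between -0.82 and -0.34. *RpL38* had 374, 428, 440 and 395 CPM in *brat*-mutant embryos, against 762, 654, 652 and 627 CPM in *HisRFP* embryos, with a log2 fold change of -0.75 (adjusted p = 0.00145, edgeR). Here replicate C did not stand apart. *RpL36A* had -0.82 (adjusted p = 0.000986, edgeR). *RpL10*, which joins the large subunit late in its assembly, had 2748, 3221, 2883 and 3074 CPM in *brat*-mutant embryos, against 4508, 3805, 4379 and 3965 CPM in *HisRFP* embryos, with a log2 fold change of -0.51 (adjusted p = 0.0112, edgeR). Among the largest positive values were those of *RpS19a* (0.34), *RpS10b* (0.22), *RpS14b* (0.20) and *RpL7A* (0.13), none past the threshold.

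At later NC14 2 genes were higher in *brat* mutants. *RpL41*, the smallest ribosomal protein, had 2738, 3323, 3083 and 5000 CPM in *brat*-mutant embryos, against 2331, 1888, 2303 and 1961 CPM in *HisRFP* embryos, and was higher with no overlap (log2 fold change 0.70, adjusted p = 0.029, edgeR). *RpL38* had 570, 766, 694 and 840 CPM in *brat*-mutant embryos, against 504, 389, 565 and 417 CPM in *HisRFP* embryos, with a log2 fold change of 0.57 (adjusted p = 0.0358, edgeR). These were the 2 of 85 genes higher by adjusted p alone, and 4 were lower (*RpS2*, *RpL13A* and *RpS5b* among them), when 11.7% of all 7865 genes tested were higher and 11.8% lower by that rule. The total of 6 was 13 without the *brat*-mutant replicate A, 9 without the *brat*-mutant replicate D and 3 without the *HisRFP* replicate C. The next highest values were *RpS19b* (0.53, read at about 1 CPM), *RpL39* (0.52) and *RpS27* (0.49), none past the threshold. Among the lowest were *RpS2*, *RpLP0*, *RpL13A* and *RpS5b*. *RpL13A* had 1263, 1445, 1628 and 1855 CPM in *brat*-mutant embryos, 1878, 1691, 1599 and 1997 CPM in *brat* hets and 2756, 3320, 2794 and 2330 CPM in *HisRFP* embryos. Every *brat*-mutant embryo was below every *HisRFP* embryo, with a log2 fold change of -0.89 ± 0.16 (SE, adjusted p = 0.00414, edgeR).

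The change between the 2 times in NC14 was tested as the interaction of genotype and stage. Of 86 genes tested, 4 were called with a higher *brat*-mutant value relative to *HisRFP* at later than at early NC14 and 1 with a lower one, and 21 and 1 passed by adjusted p alone (edgeR). Of all 8765 genes tested, 4.14% were called higher, 4.72% lower and 8.86% in either direction, and by adjusted p alone 7.03% were higher and 5.68% lower. The median was 0.44 over the ribosomal protein genes and 0.10 over all genes. The genes called higher were *RpL38* (1.43, adjusted p = 0.000764), *RpL41* (1.18, adjusted p = 0.00707), *RpL39* (1.09, adjusted p = 0.00933) and *RpL10* (1.01, adjusted p = 0.00564), by edgeR. *RpL39* lies at the exit of the tunnel through which the new protein leaves the ribosome. The call of *RpL38* held without any one library, while that of *RpL10* was lost in 8 of the 16 fits that left out 1 library and those of *RpL41* and *RpL39* in 2. Without the later NC14 replicate D of the *brat* mutants the values of *RpL41*, *RpL39* and *RpL10* were 0.84, 0.75 and 0.73, and without the later NC14 replicate C of *HisRFP* they were 0.97, 0.90 and 0.86, under the fold threshold. *RpL10* was also under it without *brat*-mutant later A (0.95) and without *HisRFP* later D, *HisRFP* early A or C or *brat*-mutant early A or C (0.98 to 0.997). With library totals *RpL39* (0.98) and *RpL10* (0.91) were under it too.

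Markers of zygotic transcription were read in the same embryos. The 6 zygotic NC14 markers (*eve*, *ftz*, *sna*, *twi*, *ind*, *run*) summed to 1179 to 2948 CPM in *brat*-mutant embryos, 1136 to 1624 CPM in *brat* hets and 2598 to 4721 CPM in *HisRFP* embryos at later NC14, and to 186 to 359 CPM in *brat*-mutant and 155 to 430 CPM in *HisRFP* embryos at early NC14. The *brat*-mutant and *HisRFP* ranges overlapped at both times, the *brat* het range lay below the *HisRFP* range at later NC14, and no test of the sum was made. By gene, at later NC14, *ind* was called higher in *brat* mutants (4.21, adjusted p = 0.00236) and *eve* lower (-1.37, adjusted p = 0.0194), by edgeR, and the other 4 did not pass. No marker of the 6 was at 0 in these groups. The *HisRFP* embryo with the lowest sum of zygotic markers, replicate A with 2598 CPM, was also the lowest of its group in *RpS2*, *RpS10b* and *RpL13A*, and the part of these marker levels in the values above was not tested.

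**Figure D5:**
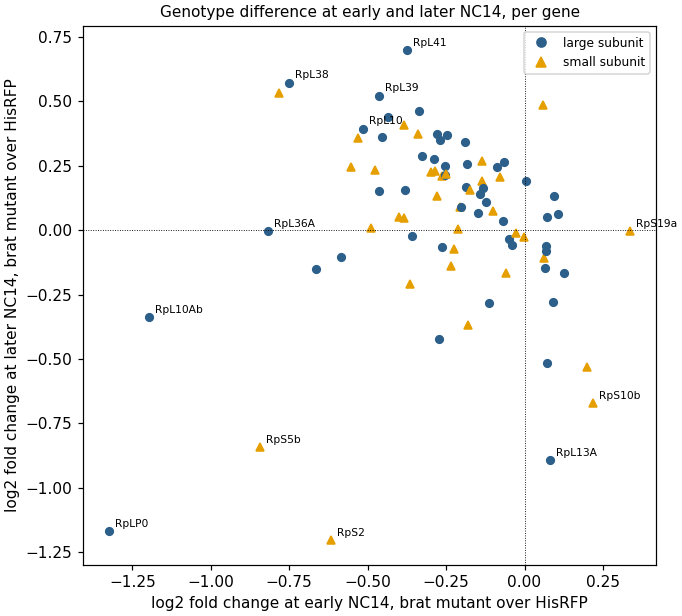
Log2 fold change of *brat* mutants over *HisRFP* at later NC14 (vertical) against early NC14 (horizontal) for each ribosomal protein gene tested at both times, circles for the large and triangles for the small subunit. *RpL38* and *RpL41* lie at upper left, at -0.75 and 0.57 for *RpL38*, and *RpLP0* at lower left, at -1.32 and -1.17.

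The *brat* hets were set against both other genotypes at the 4 stages at which they were sampled. Against *HisRFP* oocytes 83 of 84 genes had a negative log2 fold change with a median of -0.57, beside -0.05 over all genes, and 62 had an unadjusted p under 0.05. After adjustment 1 was called (*RpS5b*, above), when 1.92% of all 7624 genes tested were called, and *RpS14a* (-0.81, adjusted p = 0.0314), *RpL23* (-0.72, adjusted p = 0.0334) and *RpS21* (-0.67, adjusted p = 0.0499) passed by adjusted p alone (edgeR), when 1.38% of all genes were lower by that rule. Without *HisRFP* replicate B, which had the lowest *RpL13A*, *RpS10b* and *RpS2* of its group, 11 were called lower. *brat*-mutant oocytes were above *brat* het oocytes for 82 of 84 genes, with a median of 0.40 beside 0.00 over all genes. Of these 2 were called and 18 were higher by adjusted p alone (edgeR), when 7.5% of all 7150 genes tested were called in either direction and 3.66% were higher by adjusted p alone. *RpS10b* was called, at 1.37 (adjusted p = 0.0263, edgeR). It had 3010, 3756, 1283 and 1976 CPM in *brat*-mutant oocytes, against 1138, 1054, 855 and 1112 CPM in *brat* het oocytes, with no overlap. Without *brat*-mutant replicate C 7 genes were called, and without *brat*-mutant replicate A or B or any one *brat* het oocyte 0 were called, the values of *RpS10b* then lying between 1.09 and 1.43. *RpS5a* had 420, 562, 433 and 515 CPM in *brat*-mutant oocytes, against 262, 274, 337 and 300 CPM in *brat* het oocytes (log2 fold change 0.79, adjusted p = 0.00492, edgeR). The eggshell and follicle cell markers given above differed between these oocyte groups, with 55.0 to 266 CPM in *brat* mutants and 17592 to 59896 CPM in *brat* hets. In *HisRFP* oocytes they ran from 2.80 to 30990 CPM. Their part in the values of either comparison was not tested.

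In embryos, against *HisRFP*, none of 85 genes was called at NC10 and at NC12 and 1 at later NC14, when 3.44%, 4.37% and 3.71% of all genes were called at the 3 stages (edgeR). The genes at an unadjusted p under 0.05 numbered 5 at NC10 and 1 at NC12, and DESeq2 also called none there. *RpS5a* was lower at NC10 by adjusted p alone (-0.65, adjusted p = 0.0455, edgeR), when 2.84% of all genes were. At later NC14 *RpS10b* (-0.84, adjusted p = 0.0102), *RpS14b* (-0.64, adjusted p = 0.0409), *RpL13A* (-0.60, adjusted p = 0.0204) and *RpS5b* were lower by adjusted p alone (edgeR), when 2.34% of all genes were. The zygotic NC14 markers summed to 1136 to 1624 CPM in these *brat* hets and 2598 to 4721 CPM in *HisRFP*, with no overlap. Their part in these values was not tested. *brat* mutants against *brat* hets gave 0 of 85 called at NC10, 1 at NC12 and 0 at later NC14, when 0.175%, 1.74% and 1.96% of all genes were called (edgeR), with 1 gene at NC10 and 3 at later NC14 at an unadjusted p under 0.05 and none called by DESeq2 at these 2 stages. At NC12 *RpS2* (-0.92, adjusted p = 0.0391, edgeR) and *RpL10Ab* passed beside *RpLP0*, when 1.76% of all genes were lower by adjusted p alone. Without the *brat*-mutant later NC14 replicate C, 1 gene (*RpLP0*) was called lower than in *brat* hets at that stage.

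The genes nearest to *brat* on 2L were not past the threshold against *HisRFP* at any stage. *RpL30*, 124510 bases away, had 648, 731, 778 and 728 CPM in *brat*-mutant embryos and 879, 768, 932 and 792 CPM in *HisRFP* embryos at early NC14 (log2 fold change -0.26, adjusted p = 0.156, edgeR), and *RpS26*, 690539 bases away, had -0.06 (adjusted p = 0.839, edgeR). *RpS26* was higher in oocytes of *brat* mutants against *brat* hets by adjusted p alone (0.94, adjusted p = 0.0283, edgeR). *RpL32* had log2 fold changes between -0.23 and 0.34 in *brat* mutants over *HisRFP*, none past the threshold.

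Other genes of the translation machinery were looked at as lists. Among the cytosolic ribosomal proteins with other symbols, *sta*, which encodes the small-subunit protein SA, averaged 1553 ± 812 CPM in *brat*-mutant, 2953 ± 236 CPM in *brat* het and 4707 ± 815 CPM in *HisRFP* embryos at later NC14 (SD, n = 4 each). It was called lower against *HisRFP* there (-1.63, adjusted p = 0.00603, edgeR) and against *brat* hets at NC12 (-1.40, adjusted p = 0.008, edgeR). *Rack1*, the other gene of that list, passed in no comparison between genotypes. Of the elongation factors and other mRNAs with terminal oligopyrimidine tracts, 0 of 12 were called at early NC14 and 4 were lower by adjusted p alone, among them *eEF1delta* (-0.52) and *eEF2* (-0.39), when by that rule 8.9% of all genes were lower and 12.7% higher. Of 27 translation initiation genes 2 were higher and 4 lower there by adjusted p alone, with *eIF4E1* at 0.85 and *eIF3a* at -0.73. By the same rule, 8 of 28 ribosome biogenesis genes were lower and 0 higher, with *nop5* at -0.62 and *Nop60B* at -0.51. A list of 15 regulators was also read, which holds *brat*, the gene mutated in this comparison. Of the 15, 6 were called higher at early NC14 and 0 lower, when 9.47% of all genes were called higher. Among the 6 were *Myc* (1.25, adjusted p = 0.0123), *Thor* (1.80, adjusted p = 0.0304), which encodes a repressor of cap-dependent translation, and *brat* itself (3.26, adjusted p = 2.41e-07), by edgeR. At later NC14, 2 of the 15 were called higher and 1 lower, when 7.82% of all genes were called higher and 5.91% lower.

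The genes outside the set whose group means followed the mean of the ribosomal protein genes most closely were *ATPsynE* (Pearson r = 0.982), *ND-B18* (0.979), *eEF1gamma* (0.971), *eEF1beta* (0.968) and *Fer1HCH* (0.965), over the 16 groups on the log2(CPM + 1) scale. The points share libraries and scaling factors, and no test was made. Among the members, those that followed the mean profile least included *RpLP0* (r = 0.245), *RpS2* (0.387) and *RpL13A* (0.436).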

How the data were processed

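Single oocytes and embryos were sequenced as polyadenylated RNA. The authors aligned reads to dm6 with HISAT2 2.1.0, discarded multi-mapping reads, kept mapping qualities of at least 30 with SAMtools, and counted reads per gene with featureCounts 1.5.3 at its default, unstranded setting; the deposited values are raw counts per gene in 1 table, which the authors tested with DESeq2 1.33.5 in R 4.1.0. Of its 17510 gene identifiers 17405 matched a symbol in the Ensembl annotation of the assembly, from which coordinates and exon lengths were taken. Libraries held 4000899 to 41029921 counts, and counting error is smallest in the deepest.

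Genes with at least 50 reads over the libraries compared were fitted for each comparison, using the libraries of the 2 groups compared (the interaction used all 4 NC14 groups), with TMM factors and edgeR 4.0.16 (quasi-likelihood F-test, under R 4.3.3), with Benjamini-Hochberg adjustment over every gene tested. Calls used the study's thresholds, which are 0.05 for the adjusted p and 1 for the size of the log2 fold change. Standard errors are the log2 fold change divided by the square root of F. CPM used TMM factors over all 62 libraries. Figures were drawn with matplotlib 3.10.9 and the fits were tested on simulated data. Alternatives were RLE factors, library totals, TMM without the ribosomal protein genes, DESeq2 1.42.0, a minimum of 1 read, a replicate block and leaving out each library; for summed levels, leaving out the paralog copies was also tried. Named genes were paralog family members, the stalk genes and *RpL32*, genes within 1 megabase of *brat*, the 5 highest and 5 lowest per kilobase in *HisRFP* oocytes, the largest changes past the thresholds in each comparison (up to 3 a direction), the 5 highest and 5 lowest values of *brat* mutants over *HisRFP* at each NC14 time, and the 5 genes most alike in profile; other genes past an adjusted p were named after their values had been seen. The genes and lists were chosen with earlier results of these data known. The labels letter replicates A to D without saying what a letter marks. Same-lettered libraries deviated together in *HisRFP* NC13 and NC12, where the correlation of deviations over genes averaged 0.317 over 3 pairs and every pair was at 0.175 or more, and there a fit with the replicate block gave 66 genes at an adjusted p under 0.05 and 0 called. The values of 1 gene are not reported here and it is not drawn in the plots by gene, while counts, medians and sums include it.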

Additional observations from a re-analysis of the deposited data

Results flagged for a closer look

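In groups of 4 libraries, 10 quantities were checked for a library far from the other 3 by Dixon's ratio, which chance alone gives in about 1 in 20 groups, and 14 of 140 groups had one. The quantities share libraries and the sum holds the genes, so the checks are not independent and no excess over chance can be judged. The *brat*-mutant early NC14 replicate C gave 6 of them, with a summed level of 145300 CPM, *RpLP0* at 1824 CPM, *RpLP2* at 1333 CPM, *RpS5a* at 1078 CPM, *RpS10b* at 3318 CPM and *RpL13A* at 2754 CPM, each the highest of its group. The *brat*-mutant NC10 replicate A was the lowest of its group in *RpLP0*, at 329 CPM, and in *RpL10Ab*, at 375 CPM. The *brat*-mutant NC12 replicate B was the highest of its group in *RpL13A*, at 1194 CPM. The *brat*-mutant NC10 replicate D had the highest summed level of its group, 74837 CPM, and the *HisRFP* NC12 replicate C that of its group, 101740 CPM. *RpS5a* stood apart at 708 CPM in the *HisRFP* NC10 replicate A and at 654 CPM in the *brat* het later NC14 replicate C, and *RpLP2* at 1381 CPM in the *HisRFP* later NC14 replicate D.

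The difference of *brat* mutants from *HisRFP* itself differed between later and early NC14, by the interaction test, for *RpL38* (1.43 on the log2 scale), *RpL41* (1.18), *RpL39* (1.09) and *RpL10* (1.01).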

How the results depend on the processing

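No gene called as reported changed sign under any alternative run. Of values that did not pass, that of *RpLP0* changed sign in *HisRFP* early NC14 over NC13 (0.05 as reported, -0.11 to -0.01 in 4 of 13 alternatives), in *brat* hets over *HisRFP* at later NC14 and in oocytes (2 of 14 each) and in the interaction (0.26 as reported, -0.47 to -0.04 in 3 of 19, -0.47 without the *brat*-mutant later NC14 replicate C), and that of *RpS5b* in *HisRFP* NC12 over NC10 (0.11 as reported, -0.09 in 1 of 14) and in the interaction (0.10 as reported, -0.08 and -0.01 in 2 of 19). Outside leaving out libraries, the count of ribosomal protein genes called stayed within 1.5 times in 107 fits and moved further in 10. For *brat* mutants over *HisRFP* at NC13, where 1 was called, library totals gave 2, DESeq2 3, a minimum of 1 read 4 and the replicate block 0. At early NC14 the block gave 2 against 1. For *brat* hets over *HisRFP* oocytes, with 1 called, library totals gave 0, DESeq2 6 and the block 0; for *HisRFP* NC10 over oocytes DESeq2 gave 3 against 0, and for the interaction library totals gave 3 against 5. By adjusted p alone, library totals gave 26 at early NC14 against 16, DESeq2 gave 45 against 4 for *brat* hets over *HisRFP* oocytes and 53 against 18 for *brat* mutants over *brat* hets in oocytes, and the block gave 56 against 0 at early NC14 over NC13 in *HisRFP*, where the letters did not pair the libraries by the rule used. In the other comparisons the mean correlations of same-lettered libraries ran from -0.256 to 0.213, and whether a letter pairs libraries there is not known. Leaving out single libraries gave 0 to 1 called for *brat* mutants over *HisRFP* at NC12, 0 to 2 at NC13, 1 to 4 at early NC14 and 1 to 3 at later NC14; 0 to 11 for *brat* hets over *HisRFP* in oocytes; 0 to 7 for *brat* mutants over *brat* hets in oocytes, 1 to 2 at NC12 and 0 to 1 at later NC14; and in *HisRFP* 0 to 7 for NC10 over oocytes and 4 to 5 for later over early NC14, with 1 to 7 for the interaction. The summed level moved by more than 1 SD to 66953 CPM in *brat* het oocytes and to 142204 CPM in *brat* het and 153354 CPM in *HisRFP* later NC14 embryos with TMM without these genes, to 67119 CPM in *brat* het oocytes without paralog copies, and to 72347 CPM in *brat*-mutant NC10 embryos with library totals. The cause was not tested. The 5 genes with under 50 reads in all were left out of the main fits. With a minimum of 1 read, 1 of them, the near-silent *RpL37-2*, was called higher in *HisRFP* at later over early NC14 (log2 fold change 4.37, adjusted p = 0.0497, edgeR).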
